A study of Mus musculus with 8 samples.

Results

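Aminoacyl-tRNA synthetases, the enzymes that load each amino acid onto its transfer RNA, were followed in mouse ovarian follicles given melatonin together with a gonadotropin. Members were taken by name: every gene whose symbol is a 1-letter amino acid code followed by "ars", with or without a final 1 or 2, and in addition Eprs, Farsa and Farsb. This gave 37 of the 55157 genes in the table, 20 named as cytosolic enzymes and 17 named as mitochondrial enzymes (symbols that end in 2). The naming rule itself uses no measured value, but the members were chosen with earlier results of these data known. All 37 reached a mean of 1 FPKM (fragments of a gene for each kilobase of its exons, corrected for library size) over the 8 libraries, which was the level required for testing.

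The follicles were of types 7 to 8, antral stages in the usual staging of mouse follicles, and came from ovaries of 21-day-old mice of the outbred Kunming stock. Both groups were injected with PMSG (pregnant mare serum gonadotropin, which acts on the receptor for follicle-stimulating hormone) and were collected 24 h later. Controls received normal saline beside PMSG (n = 4 libraries) and the treated group received melatonin beside PMSG (n = 4 libraries), so no library shows follicles without gonadotropin. The labels number the replicates without saying whether each came from a separate animal or a pool, so a p-value here reflects the spread among libraries, part of which may be technical.

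Each synthetase joins 1 amino acid to its matching transfer RNAs at the expense of ATP, and the ribosome then reads the loaded transfer RNA. Most amino acids have a pair of nuclear genes, 1 for the cytosol and 1 for the mitochondrial matrix, where the few proteins coded by mitochondrial DNA are made. Several cytosolic enzymes sit together in a multi-synthetase complex, and a subset of the cytosolic genes is known to be induced by the transcription factor ATF4 when amino acids run short. In the growing follicle, granulosa cells multiply and secrete hormones while they feed the oocyte through gap junctions.

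From the FPKM values, control libraries held 17451067 to 22034165 fragments assigned to genes, and melatonin libraries held 18553172 to 23649140. The least covered member, Pars2, had 116 to 190 fragments per library, and Eprs, with 3421 to 4450, was among the best covered. The labelled tissue was checked against its markers, and none of the granulosa or oocyte markers was at 0. Summed over 8 granulosa markers, control libraries reached 7322 to 9495 FPKM and melatonin libraries 6236 to 7102 FPKM, which did not overlap, and 8 oocyte markers summed to 290 to 458 and 275 to 363 FPKM. Theca markers summed to 57.4 to 63.7 and 32.2 to 60.8 FPKM, and leukocyte markers to 5.85 to 14.7 and 4.59 to 8.38 FPKM. Red cell markers stood out in control replicates 2 and 3, at 843 and 1463 FPKM, against 63.7 to 459 FPKM in the other 6 libraries. These are bulk samples, so fewer cells of a type and less RNA per cell cannot be told apart.

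The comparison of melatonin with control asks how melatonin given with the gonadotropin changed the follicles' transcripts. Cytosolic synthetase transcripts lay slightly below control after melatonin: 19 of 20 had a negative log2 fold change, with a median of -0.12, and mean levels differed by -22.6% to +7.47% (median -8.45%). Mitochondrial synthetase transcripts lay on both sides of control: 8 of 17 were negative, with a median of 0.024. No member passed the test, since every adjusted p was above 0.05 (limma on log2(FPKM + 1), Benjamini-Hochberg over 14738 genes), the lowest being 0.135 for Tars. Across all genes the same test called 0 of 14738 (0.0%), with 2821 at an unadjusted p under 0.05, and limma-voom on fragments recovered from FPKM called 0 of 13764.

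Read against all tested genes, the cytosolic counts were higher and the mitochondrial counts were close to them. At an unadjusted p under 0.05, 11 of 20 cytosolic members (55.0%) were lower and 0 were higher, where 9.74% of all tested genes were lower and 9.4% higher. In 6 of 20 (30%) all 4 melatonin libraries lay below all 4 control libraries, against 5.94% of all tested genes. A negative log2 fold change was found in 52.5% of all tested genes, whose median was -0.0099. All 20 cytosolic members had a mean of at least 5 FPKM, and among the 8855 genes at that level 13.8% were lower at an unadjusted p under 0.05, 8.5% were lower without overlap and 57.9% were negative, with a median of -0.028. Among the mitochondrial members 1 lay below and 1 above control at an unadjusted p under 0.05, while 1 was lower and 1 higher without overlap, where 5.79% of all tested genes were higher without overlap.

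The cytosolic counts moved with the scaling and with single libraries, while the 19 stayed negative in each of the 17 alternatives in which they were fitted. Quantile normalization left 3 cytosolic members lower at an unadjusted p under 0.05 (Aars, Eprs and Tars) and 2 lower without overlap, beside 9.5% and 5.52% of the genes of at least 5 FPKM, and it also moved the split over those genes from 1218 lower and 791 higher to 841 lower and 921 higher. On recovered fragments with limma-voom, 4 of the 17 cytosolic members that could be fitted were lower at an unadjusted p under 0.05, beside 10.2% of the fitted genes of at least 5 FPKM, and the split over all genes became 1015 lower and 1656 higher from 1436 lower and 1385 higher. Shares over the genes of at least 5 FPKM moved too when a library was left out. Without melatonin replicate 1, 4 cytosolic members (Aars, Gars, Nars and Tars) were lower at an unadjusted p under 0.05, beside 9.03% of those genes. Without control replicate 1 or melatonin replicate 4 there were 7 each, beside 11.4% and 10.8%. Without control replicates 2 or 3, the pair with high red cell markers, 9 and 7 were lower at an unadjusted p under 0.05, beside 12.6% and 10.8%, and 9 and 8 were lower without overlap, beside 12.1% and 10.7%. Without melatonin replicate 2 the count lower without overlap was 9, beside 11.3%, and without melatonin replicate 3 it was 13, beside 14.3% of those genes.

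**Figure D1:**
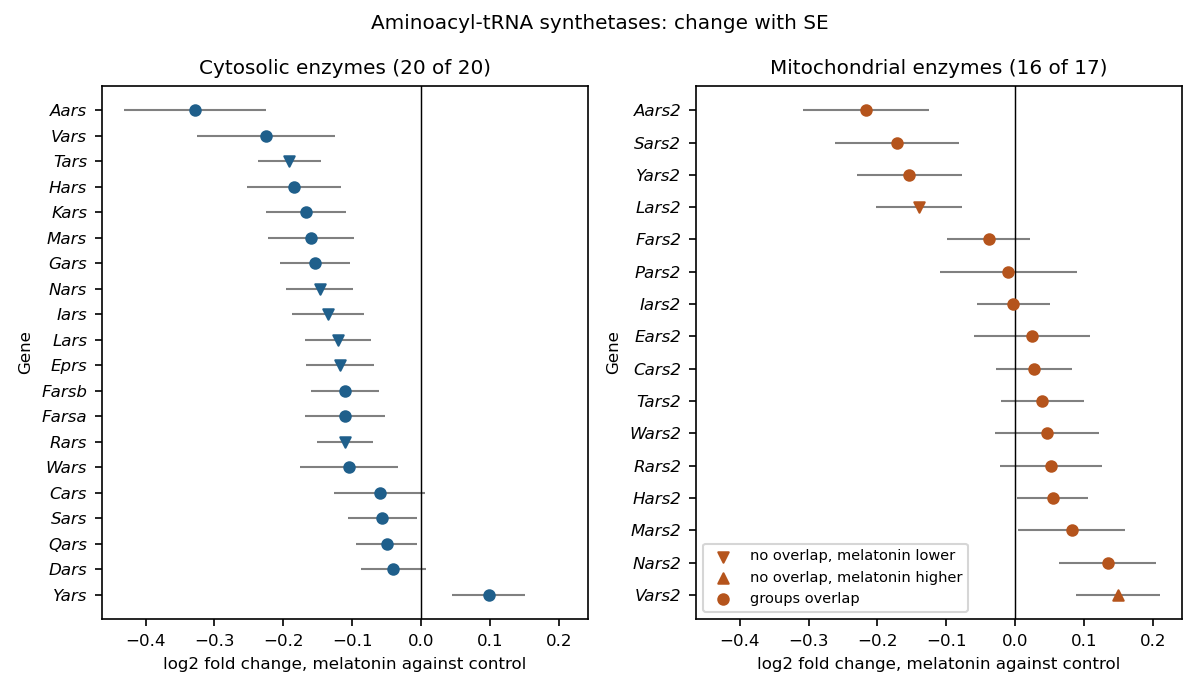
log2 fold change of 20 cytosolic and 16 mitochondrial synthetases, melatonin against control, on the log2(FPKM + 1) scale, with its standard error from limma (4 libraries per group). Downward triangles mark members whose melatonin libraries all lay below control, upward triangles those all above, and circles those whose groups overlapped. The 20 cytosolic enzymes run from -0.33 to 0.098, with Yars alone above 0, and the 16 mitochondrial enzymes run from -0.22 to 0.15.

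Each library was also given 1 score per group. For a score, log2(FPKM + 1) of each gene was centred on its average of the 8 libraries and then averaged over the group. The cytosolic score was 0.071, 0.054, 0.094 and 0.028 in control replicates 1 to 4 and -0.11, -0.051, -0.021 and -0.064 in melatonin replicates 1 to 4, so the groups did not overlap. The highest library was a control in 18 of 20 cytosolic members and the lowest was a melatonin library in 19 of 20, with melatonin replicate 1 lowest in 9. The same counts were not made over all genes. The mitochondrial score was -0.022, 0.034, -0.010 and 0.017 in control and 0.0040, -0.045, 0.014 and 0.0081 in melatonin libraries, which overlapped. The order of the 8 libraries by cytosolic score was also their order by the granulosa marker sum, which was 8653, 7948, 9495 and 7322 FPKM in control and 6236, 6819, 7102 and 6727 FPKM in melatonin replicates 1 to 4. Most of that sum is 1 gene, Inha, which codes for the alpha subunit of inhibin and whose mean was 6597 ± 641 FPKM in controls and 5445 ± 309 FPKM after melatonin (SD, n = 4 each). The granulosa markers did not all move with Inha. Nr5a2 was higher after melatonin, at 171 ± 23.5 FPKM in controls and 181 ± 12.9 FPKM after melatonin. The means of the others were lower. Among them were Fst at 200 ± 22.5 and 192 ± 12.8 FPKM and Inhbb at 803 ± 260 and 437 ± 158 FPKM. Cyp19a1 was at 11.4 ± 8.29 and 4.31 ± 3.30 FPKM. The match in library order was seen after the values were known, and the part of granulosa RNA in the cytosolic difference was not tested.

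Among cytosolic enzymes outside the complex, Tars (threonyl-tRNA synthetase, ENSMUSG00000022241, chr15:11382301-11399665, mm10) had the smallest p. Its level in replicates 1 to 4, the order used for every gene, was 13.0, 12.3, 12.4 and 11.6 FPKM in control and 10.7, 10.5, 10.5 and 10.9 FPKM in melatonin libraries. All melatonin libraries were below all controls, and they lay close together. The log2 fold change was -0.19 ± 0.046 (SE, as for every fold change below), with an adjusted p of 0.135.

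Aars (alanyl-tRNA synthetase, ENSMUSG00000031960, chr8:111033144-111057664) had the most negative fold change of the 37. It was at 9.40, 8.83, 11.5 and 8.50 FPKM in control and 6.87, 6.69, 8.66 and 7.34 FPKM in melatonin libraries. The groups overlapped through melatonin replicate 3, which was above control replicate 4, and control replicate 3 was well above the other controls. In limma the log2 fold change was -0.33 ± 0.10, with an adjusted p of 0.168. In the GENCODE annotation 1326 exon bases of Aars are shared on the same strand with Exosc6, a subunit of the RNA exosome that the table lists at 0 in every library, so the value of Aars may hold reads of both genes. Tars and Aars were the members at an unadjusted p under 0.05 in all 17 alternative settings.

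Nars (asparaginyl-tRNA synthetase) had the highest mean level of all members. Its level was 42.2, 37.3, 39.1 and 39.0 FPKM in control and 34.4, 35.9, 35.0 and 36.5 FPKM in melatonin libraries, without overlap. The log2 fold change was -0.15 ± 0.048, with an adjusted p of 0.173. Hars (histidyl-tRNA synthetase) was at 24.9, 21.6, 22.8 and 21.6 FPKM in control and 19.7, 18.6, 22.1 and 19.2 FPKM in melatonin libraries. Here melatonin replicate 3 lay inside the control range and the other 3 lay below it. For Hars the log2 fold change was -0.18 ± 0.068, with an adjusted p of 0.209.

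Gars and Kars are counted as cytosolic by their names, although in mammals each gene makes both the cytosolic and the mitochondrial form of its enzyme. Gars (glycyl-tRNA synthetase, chr6:55038007-55079500) was at 27.6, 26.3, 28.7 and 27.2 FPKM in control and 23.5, 24.4, 26.5 and 23.9 FPKM in melatonin libraries. All but melatonin replicate 3 lay below the controls. In limma the log2 fold change of Gars was -0.15 ± 0.051, with an adjusted p of 0.176. Kars (lysyl-tRNA synthetase, a member of the complex, chr8:111993443-112011323) was at 32.5, 31.2, 28.0 and 30.7 FPKM in control and 25.5, 28.6, 27.6 and 26.9 FPKM in melatonin libraries. Control replicate 3 lay among the melatonin libraries, and the other controls were above them. The log2 fold change of Kars was -0.17 ± 0.058, with an adjusted p of 0.188.

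Vars (valyl-tRNA synthetase, which in mammals binds the elongation factor eEF1) had the highest mean level after Nars and a wide spread in both groups. It was at 30.9, 35.1, 36.4 and 29.8 FPKM in control and 23.3, 29.2, 31.5 and 28.9 FPKM in melatonin libraries. Melatonin replicate 1 was far below the rest and melatonin replicate 3 lay within the control range, and the log2 fold change was -0.22 ± 0.10 (adjusted p = 0.268). Cars (cysteinyl-tRNA synthetase) had the lowest mean level of the cytosolic group, at 6.52, 6.43, 7.40 and 6.39 FPKM in control and 5.99, 6.12, 6.99 and 6.39 FPKM in melatonin libraries. Replicate 3 was the highest in both groups, and the log2 fold change was -0.060 ± 0.066 (adjusted p = 0.644). Sars (seryl-tRNA synthetase) and Wars (tryptophanyl-tRNA synthetase), with log2 fold changes of -0.056 and -0.10, overlapped between the groups.

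Yars (tyrosyl-tRNA synthetase), named here after its values were seen, was the single cytosolic member with a positive fold change. It was at 12.1, 12.1, 11.9 and 13.6 FPKM in control and 13.3, 13.7, 13.5 and 12.8 FPKM in melatonin libraries. Control replicate 4 lay with the melatonin libraries, and the other 3 controls were below all of them. In limma the log2 fold change was 0.098 ± 0.053, with an adjusted p of 0.354. It stayed between 0.078 and 0.14 over the 17 alternatives.

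**Figure D2:**
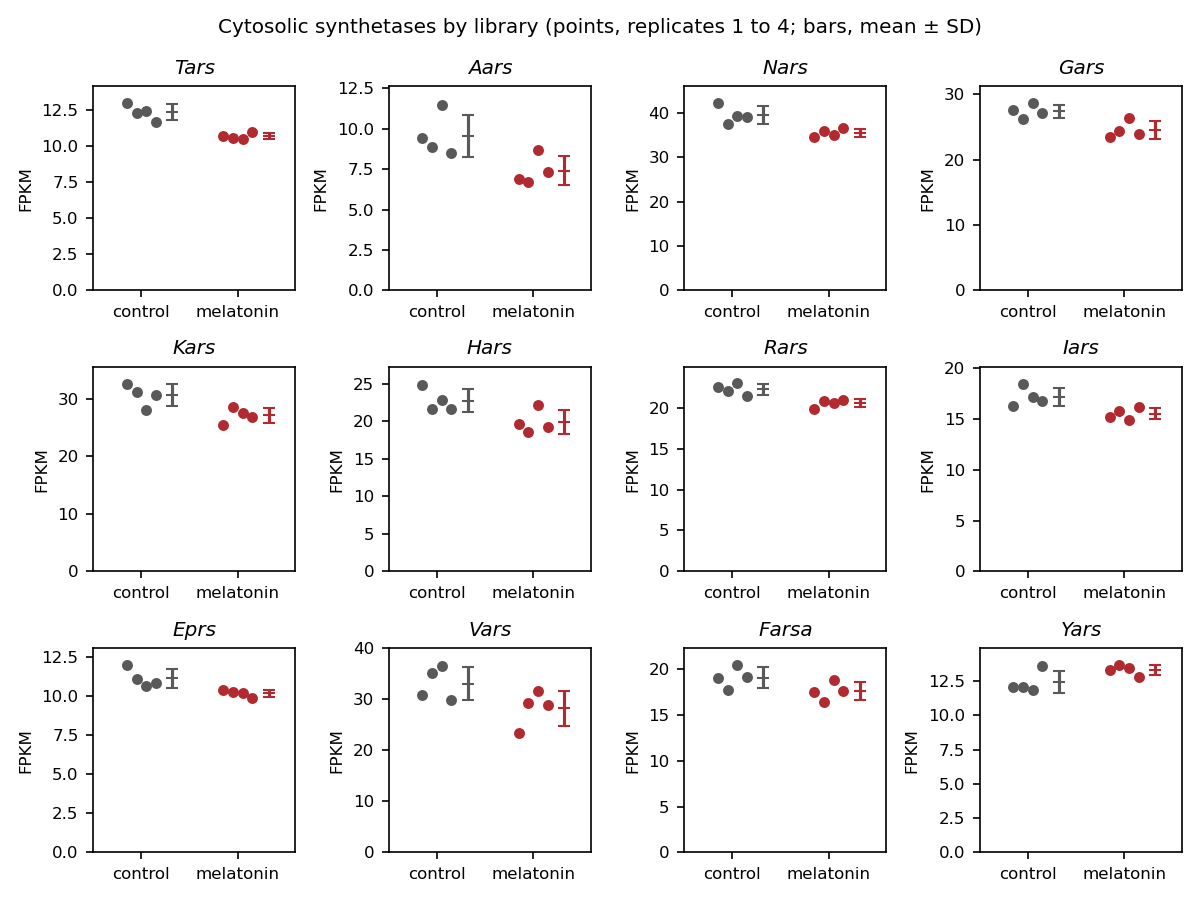
FPKM of 12 cytosolic synthetases in each library (vertical axes, from 0), with control libraries in grey and melatonin libraries in red. Points are replicates 1 to 4 from left to right, and the bar beside them is the mean ± SD (n = 4). Melatonin points lie below all control points for Tars, Nars, Rars, Iars and Eprs, and the groups overlap for the other 7.

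Phenylalanyl-tRNA synthetase is built from alpha and beta subunits in equal number, coded by Farsa (chr8:84856989-84869257) and Farsb (chr1:78417975-78488897). Farsa was at 19.0, 17.7, 20.4 and 19.1 FPKM in control and 17.5, 16.4, 18.8 and 17.6 FPKM in melatonin libraries. Farsb was at 20.7, 18.8, 19.6 and 19.2 FPKM in control and 17.5, 19.1, 17.4 and 18.1 FPKM in melatonin libraries. The groups overlapped for both subunits, with log2 fold changes of -0.11 ± 0.058 (adjusted p = 0.335) and -0.11 ± 0.049 (adjusted p = 0.268). The ratio of Farsa to Farsb was 0.974 ± 0.057 in control and 0.976 ± 0.090 in melatonin libraries (SD, n = 4 each). The log2 ratio differed by 0.00022, with p = 1 in a two-sided exact permutation test over 70 assignments, whose smallest possible p is 0.0286. Exons of Farsb share 248 bases with the oppositely transcribed Sgpp2, and no source used here says whether counting took account of strand.

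The multi-synthetase complex holds 8 of the cytosolic members, and all 8 were negative, with a median log2 fold change of -0.12. Of these, 6 were lower at an unadjusted p under 0.05 and 4 were lower without overlap. Outside the complex 11 of the 12 genes were negative, with 5 and 2 in the same counts and a median of -0.13. Of all genes of at least 5 FPKM, 13.8% and 8.5% fell in these counts, and 57.9% were negative. Kars, described above, and Rars had the smallest p of the complex. Rars (arginyl-tRNA synthetase, chr11:35808381-35834506) was at 22.6, 22.1, 23.0 and 21.4 FPKM in control and 19.9, 20.8, 20.6 and 21.0 FPKM in melatonin libraries. The groups did not overlap, and the log2 fold change was -0.11 ± 0.041 (adjusted p = 0.213).

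Eprs (chr1:185363044-185428360) codes for the one enzyme with a pair of activities, glutamyl- and prolyl-tRNA synthetase. It was at 12.01, 11.1, 10.6 and 10.9 FPKM in control and 10.4, 10.3, 10.2 and 9.89 FPKM in melatonin libraries. The groups lay close together without overlap, and the log2 fold change was -0.12 ± 0.049 (adjusted p = 0.247). Iars (isoleucyl-tRNA synthetase, chr13:49682100-49734267) was at 16.2, 18.4, 17.1 and 16.8 FPKM in control and 15.2, 15.8, 14.9 and 16.2 FPKM in melatonin libraries. Here too the groups were apart, by a narrow margin between control replicate 1 and melatonin replicate 4. The log2 fold change of Iars was -0.14 ± 0.052 (adjusted p = 0.220), and a processed pseudogene of it, Gm4849, matches 1656 bases at 96.0% identity but stood at only 0.052 FPKM.

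Dars (aspartyl-tRNA synthetase) had the largest p of the cytosolic group. It was at 20.8, 20.5, 20.1 and 19.4 FPKM in control and 19.0, 20.8, 18.8 and 19.9 FPKM in melatonin libraries. The groups overlapped over most of their range, and the log2 fold change was -0.041 ± 0.047 (adjusted p = 0.663). Lars, Mars and Qars, the other 3 enzymes of the complex, had log2 fold changes of -0.12, -0.16 and -0.050, and only the groups of Lars did not overlap. The scaffold proteins of the complex gave no count at an unadjusted p under 0.05 out of 3. Eef1e1, which holds Mars in the complex, averaged 6.51 ± 0.341 FPKM in controls and 5.79 ± 0.592 FPKM after melatonin (adjusted p = 0.311), and Aimp2 averaged 12.1 ± 0.886 and 11.6 ± 0.675 FPKM (SD, n = 4 each, adjusted p = 0.682).

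Synthetases fall into class I and class II by the fold of their catalytic domain. In the cytosolic group 9 of 10 class I members and 10 of 10 class II members were negative, with medians of -0.11 and -0.15. Eprs, with both glutamyl and prolyl activities, was counted in class I only. In the mitochondrial group 3 of 9 class I and 5 of 8 class II members were negative, with medians of 0.028 and -0.022. Class I medians lay on opposite sides of 0 in the compartments, and class II medians were negative in both. Of all tested genes 52.5% were negative, with a median of -0.0099.

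Of the cytosolic genes, 11 are known as ATF4 targets from work on amino acid shortage and stress in the endoplasmic reticulum. Here 10 of those 11 were negative (median -0.14), with 7 lower at an unadjusted p under 0.05 and 4 without overlap. The other 9 cytosolic genes were all negative (median -0.11), with 4 and 2 in the same counts. Of all genes of at least 5 FPKM, 13.8% and 8.5% fell in these counts, and 57.9% were negative. Tars and Aars, with the values given above, had the smallest p of the ATF4-linked group, and Yars was its one positive member.

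ATF4 binds with C/EBP factors at an element whose core was searched here as TGATGNAA on both strands, and no other motif was searched. The windows run from 250 bases before to 50 bases after each start in RefSeq (GRCm38.p6), and 27 members had one at their own locus. The core was found in 5 of 13 cytosolic members with a window and in 0 of 14 mitochondrial members, against 3.97% of all 32851 windows. All 5 belong to the 8 ATF4-linked members with a window. They are shown because they hold the core of the known response element. Aars, Tars, Gars and Iars had negative log2 fold changes and Yars a positive one, and the groups of Aars, Gars and Yars overlapped. Each stretch is written from 5′ to 3′ on the gene's own strand, with the core or its reverse complement in capitals. Tars is on the minus strand and the others are on the plus strand.
Aars, 112 to 105 bases before the start, chr8:111033690-111033777: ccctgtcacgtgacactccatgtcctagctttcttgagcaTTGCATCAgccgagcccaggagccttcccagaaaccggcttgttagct
Aars, 9 to 16 bases after the start, chr8:111033840-111033869: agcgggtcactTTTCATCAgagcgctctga
Gars, 30 to 23 bases before the start, chr6:55037931-55038000: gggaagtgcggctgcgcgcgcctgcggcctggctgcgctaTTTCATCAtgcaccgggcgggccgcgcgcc
Iars, 7 to 14 bases after the start, chr13:49682126-49682155: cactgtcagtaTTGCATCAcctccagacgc
Tars, 15 to 8 bases before the start, chr15:11399659-11399713: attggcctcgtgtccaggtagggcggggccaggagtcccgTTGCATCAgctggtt
Yars, 3 to 10 bases after the start, chr4:129189895-129189924: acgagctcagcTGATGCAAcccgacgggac

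A match to these letters is a description and not a binding site. In Aars, Gars, Iars and Tars the element reads as its reverse complement on the gene's strand, and in Yars it reads in the forward sense. No factor's binding was measured in these libraries.

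The other genes of the amino acid response, which ATF4 drives with the synthetases, were counted over the whole list. Of 24 genes, 20 reached the level for testing, and Chac1, Trib3, Slc7a11 and Stc2 did not. Of the 20 tested, 15 were negative (median -0.18), 9 were lower at an unadjusted p under 0.05, 2 were lower without overlap and 0 passed the adjusted threshold. Over all tested genes 52.5% were negative, 9.74% were lower at an unadjusted p under 0.05 and 5.94% were lower without overlap. Shmt2 (mitochondrial serine hydroxymethyltransferase) was at 30.2, 30.5, 32.8 and 28.9 FPKM in control and 26.0, 27.0, 26.2 and 23.6 FPKM in melatonin libraries. Those groups did not overlap, and the log2 fold change was -0.24 ± 0.057 (adjusted p = 0.127).

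Slc3a2, the heavy chain of several amino acid transporters, was at 63.7, 69.7, 67.7 and 57.9 FPKM in control and 50.6, 50.4, 58.6 and 52.9 FPKM in melatonin libraries. Melatonin replicate 3 was just above control replicate 4, so the groups overlapped, and the log2 fold change was -0.28 ± 0.073 (adjusted p = 0.146). Next by p came Slc7a5 (a light chain that pairs with Slc3a2), Mthfd2 (an enzyme of mitochondrial folate metabolism), Psat1 (an enzyme of serine synthesis) and Cebpb (a transcription factor). They had log2 fold changes of -0.50, -0.34, -0.38 and -0.50, with groups that overlapped and adjusted p from 0.147 to 0.197. These 4 were named after their values were seen, as were Atf4, Asns and Ddit3. Atf4 itself averaged 57.3 ± 4.03 FPKM in controls and 52.9 ± 2.83 FPKM after melatonin (SD, n = 4 each, adjusted p = 0.362). Asns (asparagine synthetase) and Ddit3, both classical ATF4 targets, had log2 fold changes of -0.022 and 0.0077, so both stood near 0. Ddit3 shares 68 exon bases with Mars on the opposite strand.

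**Figure D3:**
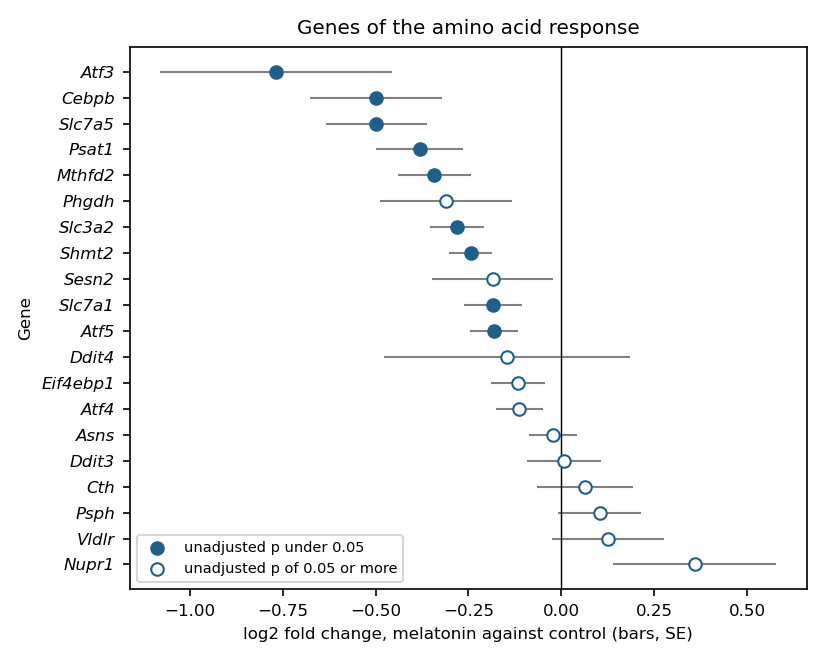
log2 fold change of the 20 tested genes of the amino acid response, melatonin against control, with standard errors from limma (4 libraries per group). Filled points have an unadjusted p under 0.05 and open points do not; 9 filled points lie below 0 and none above it, and Nupr1 is the highest at 0.36.

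Upstream of ATF4, genes of the eIF2 kinases and their regulators were negative in 6 of 8, with 2 lower at an unadjusted p under 0.05. The shares over all tested genes were 52.5% and 9.74%. The pair with the smallest p were Ppp1r15a and Ppp1r15b, which bring a phosphatase to eIF2. Ppp1r15a was at 28.6, 23.4, 22.9 and 23.2 FPKM in control and 15.7, 16.2, 20.1 and 23.0 FPKM in melatonin libraries. Melatonin replicate 4 lay among the controls, and the adjusted p was 0.178. Ppp1r15b was at 19.5 ± 1.07 and 17.8 ± 0.381 FPKM (adjusted p = 0.230).

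Among the mitochondrial enzymes, Vars2 (valyl-tRNA synthetase 2, ENSMUSG00000038838, chr17:35655634-35667592) had the smallest p. It was at 13.0, 12.6, 10.7 and 12.1 FPKM in control and 13.8, 13.7, 13.3 and 13.2 FPKM in melatonin libraries. All melatonin libraries were above all controls, and control replicate 3 was the lowest by a clear margin. In limma the log2 fold change was 0.15 ± 0.061, with an adjusted p of 0.238.

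Aars2 (alanyl-tRNA synthetase 2, chr17:45506841-45520843) lay on the other side of control, at 6.13, 7.38, 6.55 and 7.90 FPKM in control and 5.21, 5.51, 6.22 and 6.54 FPKM in melatonin libraries. The groups overlapped through melatonin replicates 3 and 4. The log2 fold change was -0.22 ± 0.092, with an adjusted p of 0.248. Lars2 (leucyl-tRNA synthetase 2, chr9:123366927-123462666) was at 2.83, 3.16, 2.83 and 2.81 FPKM in control and 2.58, 2.59, 2.46 and 2.55 FPKM in melatonin libraries. Its groups did not overlap, and control replicate 2 stood above the other 3 controls. In limma the log2 fold change of Lars2 was -0.14 ± 0.062, with an adjusted p of 0.269.

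Yars2 (tyrosyl-tRNA synthetase 2) was at 9.50, 10.3, 11.8 and 9.27 FPKM in control and 9.61, 8.51, 9.05 and 9.05 FPKM in melatonin libraries. Melatonin replicate 1 was within the control range and the other 3 were below it, with a log2 fold change of -0.15 ± 0.076 (adjusted p = 0.311). Nars2 (asparaginyl-tRNA synthetase 2) was at 2.49, 2.48, 2.25 and 2.19 FPKM in control and 2.69, 2.49, 2.89 and 2.64 FPKM in melatonin libraries. The groups met at control replicate 1 and melatonin replicate 2, which were equal to 3 digits, and the other melatonin libraries were higher. The log2 fold change of Nars2 was 0.13 ± 0.070 (adjusted p = 0.334).

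Iars2 and Pars2 had the largest p of the mitochondrial group. Iars2 (isoleucyl-tRNA synthetase 2) was at 11.3, 11.2, 10.5 and 11.2 FPKM in control and 11.5, 11.0, 10.2 and 11.5 FPKM in melatonin libraries. The ranges nearly coincided, with replicate 3 lowest in both groups (log2 fold change -0.0027, adjusted p = 0.984), and 2034 of its exon bases lie opposite exons of Rab3gap2, so reads of both genes may be mixed. Pars2 (prolyl-tRNA synthetase 2) was at 1.87, 2.52, 2.67 and 2.77 FPKM in control and 2.60, 2.49, 2.35 and 2.23 FPKM in melatonin libraries. The melatonin range lay inside the control range (log2 fold change -0.010, adjusted p = 0.967).

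Hars2 (histidyl-tRNA synthetase 2) had the highest mean level of the mitochondrial group, at 12.9, 13.2, 12.3 and 13.4 FPKM in control and 13.9, 12.7, 14.2 and 13.1 FPKM in melatonin libraries. The groups overlapped, with a log2 fold change of 0.054 ± 0.052 (adjusted p = 0.593). Hars2 and Hars are transcribed away from each other and share 195 exon bases on opposite strands. Mars2 (methionyl-tRNA synthetase 2) had the lowest mean level of all 37, at 1.64, 1.65, 1.61 and 1.43 FPKM in control and 1.88, 1.65, 1.66 and 1.75 FPKM in melatonin libraries. Its groups overlapped by a narrow margin (log2 fold change 0.082 ± 0.077, adjusted p = 0.587). The mitochondrial members Cars2, Ears2, Fars2, Rars2, Sars2, Tars2 and Wars2, had log2 fold changes from -0.17 (Sars2) to 0.052 (Rars2), and the groups overlapped in each.

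**Figure D4:**
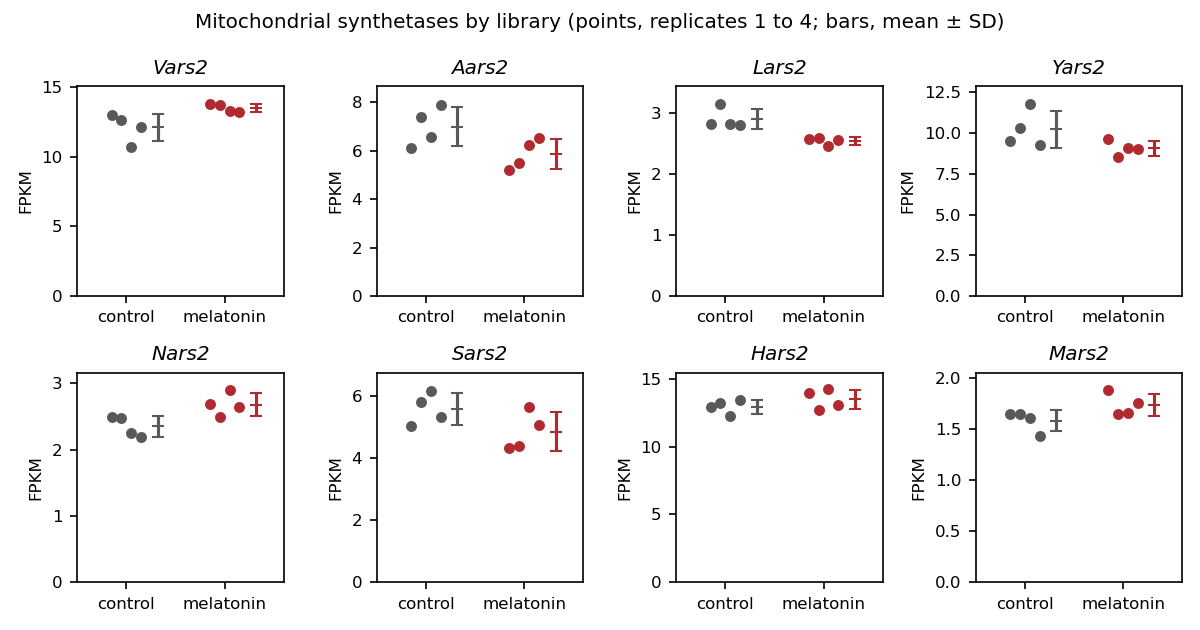
FPKM of 8 mitochondrial synthetases in each library (vertical axes, from 0), with control libraries in grey and melatonin libraries in red. Points are replicates 1 to 4 from left to right, with the mean ± SD beside them (n = 4). Melatonin points lie above all controls for Vars2 and below all controls for Lars2, and the groups overlap for the other 6.

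Amino acids with 1 member for each compartment allow a comparison within the library. For threonine the further gene Tarsl2, outside the naming rule, was left out. Of such pairs 13 were compared, and the cytosolic gene had the higher mean level in 13 of 13, from 1.09 times (Tars to Tars2) to 14.9 times (Nars to Nars2). Over all members the mean level had a median of 19.4 FPKM in the cytosolic group (6.53 to 37.5) and 5.21 FPKM in the mitochondrial group (1.66 to 13.2). The cytosolic fold change was below the mitochondrial one in 10 of 13 pairs, the exceptions being Lars, Sars and Yars. In Hars to Hars2, Nars to Nars2 and Vars to Vars2 all melatonin libraries had a lower log2 ratio than all controls, and in 0 pairs was it higher without overlap. These ratios are built from the member values above, where Nars was lower and Vars2 higher without overlap. Ratios of other gene pairs were not counted, and for single genes 5.94% of all tested were lower without overlap.

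The Vars to Vars2 ratio was the one that differed most. Controls had a log2 value of 1.25 to 1.76 and melatonin libraries one of 0.76 to 1.24, so the gap between the groups was small beside the range within each. For Nars to Nars2 the controls had 3.91 to 4.16 and the melatonin libraries 3.60 to 3.85. For Hars to Hars2 the controls had 0.69 to 0.95 and the melatonin libraries 0.50 to 0.64. These ratios are a description of chosen pairs and were not tested.

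**Figure D5:**
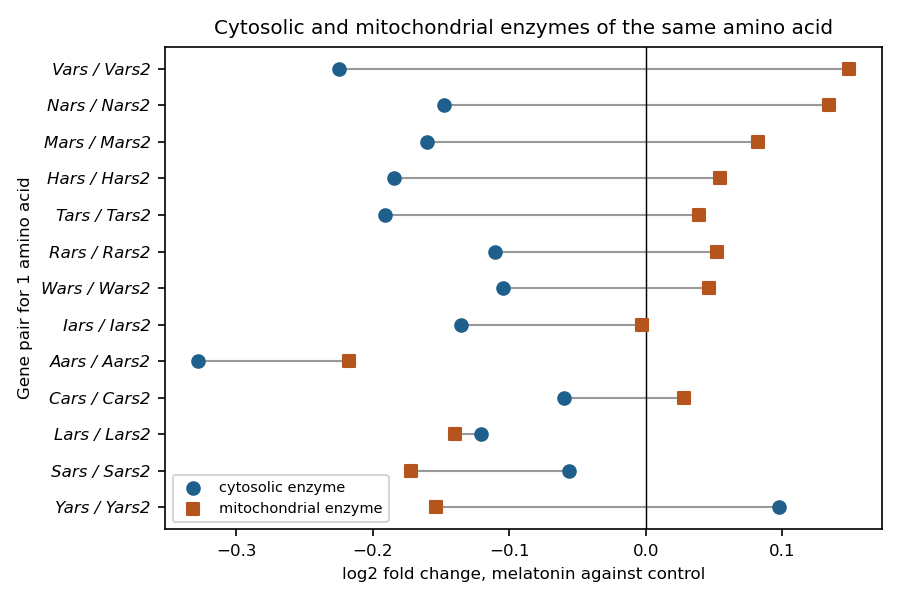
log2 fold change (melatonin against control, 4 libraries per group) of the cytosolic (circles) and mitochondrial (squares) synthetase of the same amino acid, for 13 pairs joined by a line. The cytosolic point lies to the left in 10 pairs, and the lowest 3 lines (Lars, Sars and Yars) run the other way.

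Genes that act beside the synthetases were counted in the same way. Over all tested genes 52.5% were negative, 9.74% were lower at an unadjusted p under 0.05 and 5.94% were lower without overlap. Of 21 genes of tRNA maturation and export 14 were negative (median -0.034), with 4 lower at an unadjusted p under 0.05 and 2 without overlap. Those with the smallest p were Rtcb, the tRNA ligase, at 49.8 ± 1.85 and 44.1 ± 1.74 FPKM in control and melatonin libraries (adjusted p = 0.148), and Elac2, which trims the tRNA 3′ end, at 18.2 ± 1.14 and 15.9 ± 0.943 FPKM (adjusted p = 0.179). Of 8 cytosolic elongation genes 7 were negative (median -0.080), with 3 lower at an unadjusted p under 0.05, led by Eef1akmt1 at 13.2 ± 1.55 and 10.9 ± 0.403 FPKM (adjusted p = 0.169) and Eif5a at 135 ± 4.78 and 118 ± 8.83 FPKM (adjusted p = 0.170).

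Mitochondrial translation factors were negative in 6 of 9 (median -0.044), with 2 below and 1 above control at an unadjusted p under 0.05. Over all tested genes 9.74% were lower and 9.4% higher at that p. Tufm, the mitochondrial elongation factor Tu, was at 42.3 ± 0.400 and 39.2 ± 1.38 FPKM (adjusted p = 0.208), and Gfm2, which acts in ribosome recycling, was at 3.48 ± 0.119 and 3.94 ± 0.124 FPKM (adjusted p = 0.228). The 4 genes that amidate glutamyl-tRNA or formylate methionyl-tRNA in mitochondria were split, 2 negative and 2 positive, and Qrsl1 and Gatc had the smallest p, with adjusted p = 0.285 and 0.496. Of 5 genes of the selenocysteine pathway 3 were negative and 2 were lower at an unadjusted p under 0.05, Sephs2 at 8.80 ± 0.477 and 7.54 ± 0.607 FPKM (adjusted p = 0.172) and Sephs1 at 12.4 ± 0.210 and 11.3 ± 0.577 FPKM (adjusted p = 0.225). Of 5 tested synthetase-like and proofreading genes 2 were negative and 0 reached an unadjusted p under 0.05, the smallest p being those of Ptrhd1 and Dtd2 (adjusted p = 0.437 and 0.513). Tarsl2, a further threonyl-tRNA synthetase outside the naming rule and chosen after its values were seen, was at 4.61 ± 0.488 and 4.95 ± 0.260 FPKM, with a positive log2 fold change of 0.088.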

How the data were processed

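RNA of 8 follicle samples was sequenced. Total RNA was taken up in Trizol and libraries came from a NEBNext Ultra kit, per the labels' protocols. The submitters' processing notes name HISAT2 2.0.5 and the mm10 build. The counting tool, annotation and strand setting were not stated in any source used here. The authors deposited FPKM per gene, per the file headers. Such values are shares of a library, and a level depends on the exon length used. With exon lengths from GENCODE M21, which matched 54495 of 55157 genes, 98.7% to 98.9% of values up to 30 fragments were whole numbers within 0.05, which gave the implied depth.

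The 14738 genes whose mean reached 1 FPKM entered a limma 3.58.1 fit (R 4.3.3, moderated by empirical Bayes with a trend) on log2(FPKM + 1), two-sided, with group as the single term, Benjamini-Hochberg adjustment and a threshold of 0.05. This scale understates changes of low genes. On simulated data for melatonin against control (14738 genes) 54.05% of genes with a log2 change of 0.5 were found, 90.77% at 1 and 91.8% at 2, and 15 unchanged genes were called. Changes below 0.5 were not simulated. The members ran from -0.33 to 0.15, so the share found at their size is not known. Members and lists were chosen with earlier results of these data known, and no test over a list was made. Values of 1 mitochondrial member are not reported here, though it is included in counts and medians over the group. The genes described are the 8 cytosolic and 5 mitochondrial members with the smallest p, the 2 with the largest p and those with the extreme mean levels in each group, with Eprs, Gars, Kars, Farsa and Farsb, and the 2 genes of smallest p in each list; others are said to be chosen later. Near-identical copies were sought with blastn 2.17.0 (at least 95% identity over 150 bases). Tables used Python 3.11.15 and pandas 2.3.3. Alternatives were quantile and median-ratio scaling, a pseudocount of 0.1, no filter or one of 5 FPKM, array weights, a replicate block, removal of GC content and length trends (splines with 5 degrees of freedom), limma-voom on recovered fragments and leaving out each library.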

Additional observations from a re-analysis of the deposited data

Results flagged for a closer look

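Single libraries stood far from the other 3 of their group in 6 of the 72 groups of 4 examined (36 members in each treatment), by the gap to the nearest library over the group's range (Dixon's 95% limit). Chance gives about 1 in 20. In control libraries, Cars was at 7.40 FPKM in replicate 3 against 6.39 to 6.52 in the others, Iars2 at 10.5 FPKM in replicate 3 against 11.2 to 11.3, and Lars2 at 3.16 FPKM in replicate 2 against 2.81 to 2.83. Control replicate 4 stood apart for Wars, at 15.8 FPKM against 16.8 to 17.0, and for Yars, at 13.6 FPKM against 11.9 to 12.1. In melatonin libraries, replicate 3 stood apart for Qars, at 19.9 FPKM against 20.9 in the others. Without control replicate 4 the log2 fold change of Yars was 0.14 and its groups did not overlap. There and after removal of GC and length trends, 2 of 17 alternatives, Yars was higher at an unadjusted p under 0.05 (limma). Its lowest adjusted p over the alternatives was 0.149.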

How the results depend on the processing

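Of 618 values of single members under 17 alternatives, 598 kept their direction, 0 passed the adjusted threshold and 20 changed sign, all of them mitochondrial (0 of 337 cytosolic). The lowest adjusted p of any member was 0.0972, for Tars with array weights. Sign changes were Cars2 -0.0077 and Ears2 -0.0068 under quantile normalization, Iars2 0.0034 under quantile normalization, 0.0039 under median-ratio scaling and 0.018 with limma-voom, Mars2 -0.059 after GC and length removal, and Pars2 0.017 with array weights, 0.042 after GC and length removal and 0.011 with limma-voom. Leaving out single libraries gave -0.029 to 0.062 for Ears2, -0.025 to 0.034 for Iars2 and -0.097 to 0.034 for Pars2.

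The count of genes called was 1 with no filter on low values and 0 to 1 with 1 library left out. Members lower without overlap numbered 7, then 3 under quantile normalization, 4 with limma-voom, and 7 to 15 with 1 library left out. The same counts over all tested genes were 875, then 694, 589 of 13764, and 1017 to 1502. Members at an unadjusted p under 0.05 numbered 13, then 6 under quantile normalization, 7 with limma-voom, and 4 to 14 with 1 library left out. Over all tested genes these counts were 2821, then 2517, 2671 of 13764, and 1923 to 3267. The limma-voom fit lacks Hars, Lars and Nars, whose values did not give whole fragments. The cytosolic median was -0.084 under quantile normalization. The mitochondrial median was -0.0068 under quantile normalization, -0.0027 with a filter of 5 FPKM, which leaves 9 of 17 members, and 0.054 with limma-voom. Where not stated, the cause was not tested. The log2 difference in the Farsa to Farsb ratio was -0.049 to 0.060 with 1 library left out (exact p from 0.343 to 1).

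Replicate numbers gave no sign of pairing the samples, which such correlations cannot exclude. Deviations of same-numbered libraries correlated at 0.00074, -0.10, 0.15 and 0.038, and 1 of 4 controls matched its own number best. With the replicate block, 13 members were at an unadjusted p under 0.05 and 0 passed the adjusted threshold.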
